A study of Mus musculus with 28 samples.

Results

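The genes described here are 7 enzymes and transporters that handle arginine in the healing skin wound: the arginine transporters Slc7a1 and Slc7a2, the arginine-making enzymes Ass1 and Asl, the nitric oxide (NO) synthases Nos2 and Nos3, and the ornithine decarboxylase Odc1. They were chosen by name, and all 7 were found among the 29068 gene symbols of the count table and passed the filter on low counts together with 18107 genes in all. RNA came from the back skin of wild-type (MLKL+/+) C57BL/6J mice that were 8 weeks old. For the groups from Day3 on, it came from the whole wound site, scab and wound edges included. The wound was a full-thickness punch of 6 mm that was left to heal on its own. The 7 groups were Day0, the control in the labels, and Day3, Day5, Day7, Day10, Day12 and Day14, with 4 libraries each and 28 in all. The study's methods give the earliest time as day 1, which its figure captions call the day of the injury. Day0 is used here only as the labels' name for that group, and whether it is that day or skin before wounding is not stated. The submitted text speaks of 5 repeats, while the caption of the study's heatmap gives n = 4. Whether the 4 libraries of a day came from 4 mice is not stated. If they did not, the p-values measure a spread that may be technical.

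Arginine enters cells through cationic amino acid transporters of the Slc7a family. NO synthases convert it to citrulline and NO, and Ass1 followed by Asl turns citrulline back into arginine. Arginine is also split into urea and ornithine, and ornithine is the start of polyamine synthesis, whose first step is Odc1, and of proline synthesis. In wounds, Nos2 is best known from macrophages, Nos3 from endothelium, and polyamines from dividing cells.

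The genes lie on 5 chromosomes of the mouse genome (build GRCm38, which is mm10 and the build in the submitters' processing notes; positions are those of GENCODE M21). Slc7a1 spans chr5:148327410-148399904 on the minus strand, Slc7a2 chr8:40862396-40922308 on the plus strand, Ass1 chr2:31470207-31520672 on the plus strand and Asl chr5:130011258-130029247 on the minus strand. Nos2 spans chr11:78920787-78960254, Nos3 chr5:24364810-24384474 and Odc1 chr12:17544794-17551505, each on the plus strand. All are protein-coding. Exons of Nos3 share 294 bases with Atg9b and 1040 bases with the antisense RNA gene Gm15587, both on the other strand. The strand setting of the counting is not given in the sources used here, so reads on these bases cannot be assigned to one gene. Atg9b fell on Day3 (−0.955 ± 0.15) and rose on Day14 (1.56 ± 0.14), the opposite order to Nos3. Gm15587 was not among the counted genes, so its level could not be examined.

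Promoter sequence from the RefSeq table (build GRCm38.p6) was at hand for Slc7a1, Ass1 and Odc1, which are the 3 members called higher on both Day12 and Day14. The letters below run 5′ to 3′ on the gene's own strand, up to the first base of the GENCODE gene, and capitals mark every match to one of 6 short motifs on either strand. The motifs were the E-box CACGTG, the AP-1 element TGANTCA and the cyclic AMP element TGACGTCA. The core promoter motifs were the GC box GGGCGG, the CCAAT box and the TATA box TATAAA. No match overlapped another, and the letters shown of Ass1 hold none. The sequences are shown so that the 3 windows can be compared, and a match is no evidence of binding.
Slc7a1, chr5:148399905-148400154, minus strand: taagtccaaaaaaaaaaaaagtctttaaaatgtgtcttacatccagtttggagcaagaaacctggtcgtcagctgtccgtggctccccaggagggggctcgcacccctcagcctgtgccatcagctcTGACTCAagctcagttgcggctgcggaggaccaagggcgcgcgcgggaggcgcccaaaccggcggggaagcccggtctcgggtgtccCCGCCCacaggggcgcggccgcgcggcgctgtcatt
Ass1, chr2:31470020-31470206, plus strand: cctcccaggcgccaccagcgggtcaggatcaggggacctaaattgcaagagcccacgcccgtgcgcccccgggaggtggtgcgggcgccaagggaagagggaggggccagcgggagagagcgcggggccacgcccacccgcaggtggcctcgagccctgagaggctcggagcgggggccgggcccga
Odc1, chr12:17544623-17544793, plus strand: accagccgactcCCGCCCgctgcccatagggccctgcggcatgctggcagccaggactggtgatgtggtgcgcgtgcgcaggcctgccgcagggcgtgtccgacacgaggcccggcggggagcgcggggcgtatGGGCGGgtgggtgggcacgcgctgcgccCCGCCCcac
Over the whole window of 250 bases before the RefSeq start, Odc1 held 4 GC boxes, of which 3 are in the letters shown, and Slc7a1 and Ass1 held 1 each. A GC box was present in 32.7% of the 32851 promoters of the table. Slc7a1 held the AP-1 match TGACTCA, which starts 123 bases before its start (6.75% of promoters hold such a match). Ass1 held an E-box that starts 36 bases before the RefSeq start, beyond the letters shown (6.02% of promoters). The windows of the 3 genes held neither the cyclic AMP element, found in 1.55% of promoters, nor the CCAAT box (33.8%). A further start of Slc7a1 lies inside the annotated gene and carries a TATAAA box, found in 12.4% of promoters.

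The libraries held 36706513 to 40655764 counts each. The biological coefficient of variation, the spread between libraries beyond counting error, was 26.4% on Day0 and at most 10.8% on the other days. The Day0 libraries fell into pairs by some of their tissue markers: the summed level of 6 fibroblast markers, in CPM (counts scaled to the library total), was 17900 and 10100 CPM in replicates 1 and 4 but 41400 and 40000 CPM in replicates 2 and 3, and 6 proliferation markers summed to 231 and 196 CPM against 111 and 105 CPM. Other markers did not split this way: the summed hair follicle markers were 2140, 713, 671 and 259 CPM in replicates 1 to 4, the macrophage sum was lowest in replicate 4 (1170 CPM) and the wound edge sum highest in replicate 1 (709 CPM). Calls of the 7 members against Day0 at an adjusted p under 0.05 that change without one of these pairs are given with and without it. Values of the other genes without these libraries are not given. Markers of basal keratinocytes, the cells that define epidermis, were present in every library, at a summed 3080 to 8170 CPM for 6 genes.

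Calls of the members against Day0 rest on the quasi-likelihood test of edgeR at an adjusted p under 0.05, with Benjamini-Hochberg adjustment across the genes tested. In tissue RNA, fewer cells of a type and less RNA per cell cannot be told apart. On Day3, 6 of 7 were higher than on Day0, where 31.8% of all genes tested were higher, and Slc7a2 was lower, where 34.8% were lower. On Day5, 5 were higher and 1 was lower (29.0% and 30.6% of all genes). On Day7, 2 were higher and 1 was lower (25.6% and 24.8%), and 5 were higher without Day0 replicates 1 and 4 or without Day0 replicate 1 alone. On Day10, 4 were higher and 0 were lower (23.5% and 26.9%), and edgeR at an unadjusted p under 0.05, DESeq2 and limma also gave 0 lower. The later days differed in direction, with 3 higher and 2 lower on Day12 (21.7% and 25.6%), and 5 higher and 2 lower on Day14 (28.2% and 34.5%). Without Day0 replicates 2 and 3, 2 were higher and 1 was lower on Day10, and 1 was lower on Day14, while without Day0 replicates 1 and 4, 1 was lower on Day12. The median log2 fold change of the members was 0.96 on Day3, 0.43 on Day5, 0.16 on Day7, 0.27 on Day10, 0.12 on Day12 and 0.45 on Day14, while the median of all genes stayed between −0.056 and 0.0024.

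**Figure D1:**
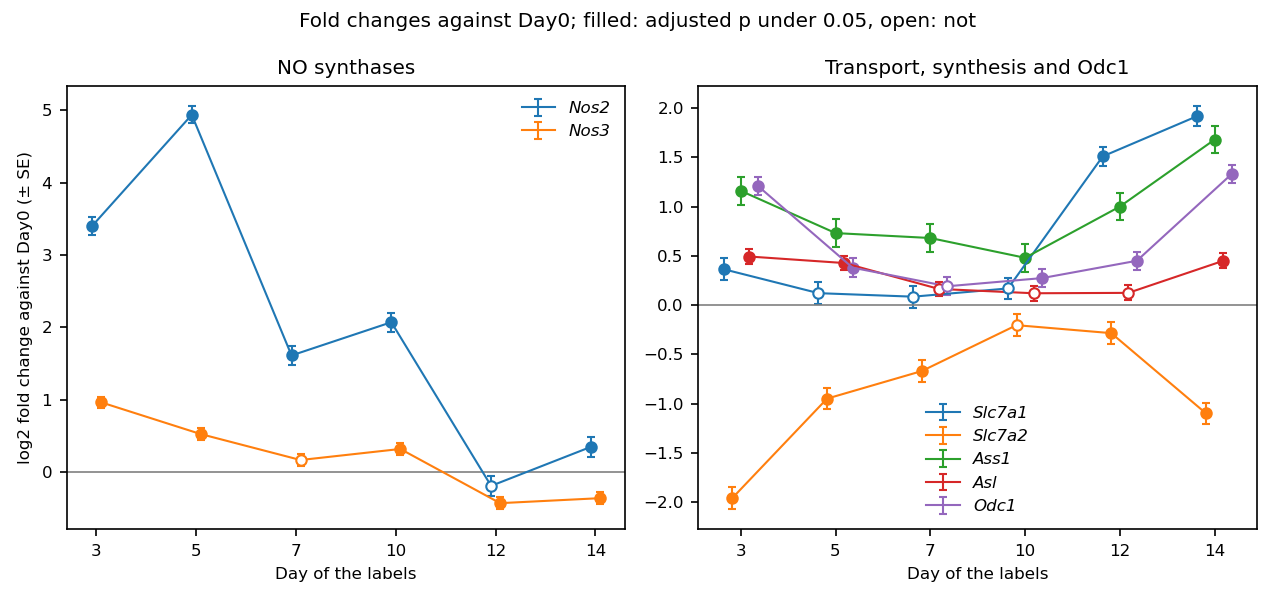
The log2 fold change of each gene against Day0 (y axis, with its SE) is plotted by day (x axis) from the fit of all 28 libraries, 4 per day. Nos2 peaks at 4.94 on Day5, and Slc7a1 and Ass1 reach their highest values on Day14. Filled points have an adjusted p under 0.05.

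The study's methods asked for a P under 0.05 without adjustment and a log2 fold change beyond 1.5 up or down. The study applied them to DESeq2 results, whereas here they were applied to the edgeR values. By these criteria 2 members were called on Day3, Nos2 as higher and Slc7a2 as lower (18.9% of all genes met them). Nos2 alone met them on Day5 (13.9%), Day7 (9.40%) and Day10 (9.47%), Slc7a1 alone on Day12 (7.39%), and Slc7a1 and Ass1, both higher, on Day14 (14.0%). Some of these values lie near the fold limit. Slc7a1 on Day12 (1.51) was 1.38 without Day0 replicates 2 and 3, and it was 1.46, 1.48, 1.49 and 1.49 without Day0 replicate 2, 3 or 4 or Day12 replicate 4. Ass1 on Day14 (1.68) was 1.38 without Day0 replicates 2 and 3, while without Day0 replicates 1 and 4 Ass1 on Day3 (1.66) and Odc1 on Day14 (1.59) passed the limit as well. The 4 libraries of a day did not overlap those of Day0 for 6 members on Day3 (56.8% of all genes), 5 on Day5 (46.1%), 3 on Day7 (39.2%), 1 on Day10 (41.4%), 4 on Day12 (38.7%) and 6 on Day14 (50.7%).

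Among the wound days themselves, all 7 members differed in a joint test over the 6 days, as did 85.1% of all genes tested. These comparisons do not contrast with Day0, but the Day0 libraries were in the fit and enter its estimate of the spread. The F value was lowest for Asl (11.3, adjusted p = 1.3e-05) and highest for Nos2 (584, adjusted p = 9.7e-24). From Day3 to Day5, 2 members rose and 3 fell (24.3% of all genes changed either way). From Day5 to Day7, 3 fell (28.5%) and edgeR called 0 higher, with 1 (Slc7a2) at an unadjusted p under 0.05, which limma also called and DESeq2 did not. This count of 3 was 5 without Day0 replicates 1 and 4 and without Day0 replicates 2 and 3, where Slc7a2 (higher) and Odc1 (lower) passed as well. Then 2 changed from Day7 to Day10 (32.3%), both upward, 2 rose and 2 fell from Day10 to Day12 (39.4%), and 5 rose and 1 fell from Day12 to Day14 (45.2%). Between Day3 and Day14, 3 members were higher and 2 were lower on Day14 (67.0% of all genes changed). The call of Ass1 between Day3 and Day5 was lost without Day5 replicate 2, which left 4 called members.

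**Figure D2:**
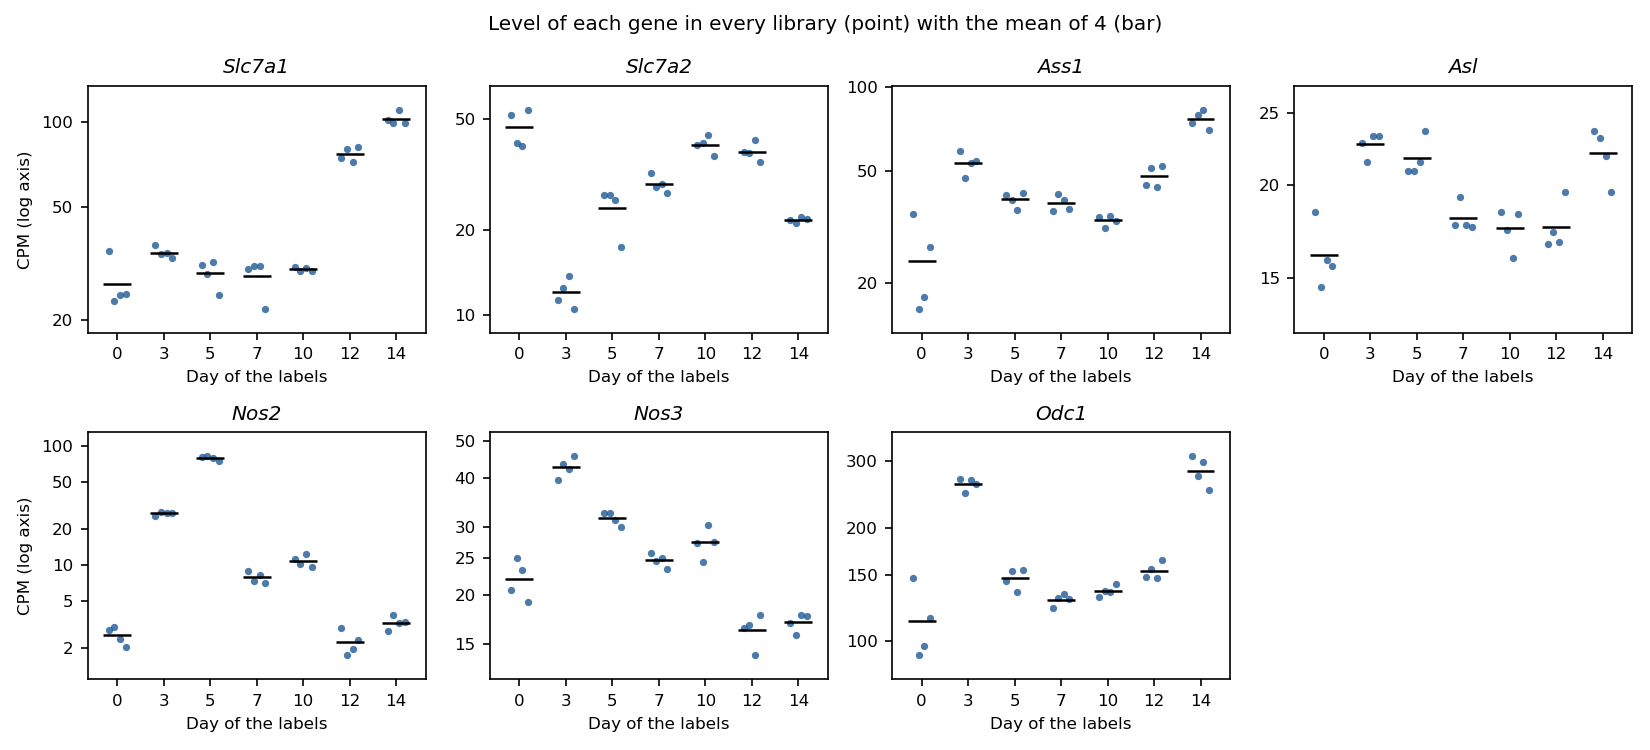
The level of each gene in CPM (y axis, log scale, a different range in each panel) is plotted for every library (points) by day (x axis), with the mean of the 4 libraries of a day as a bar. Slc7a1 stands at 98.9 to 110 CPM on Day14 and Nos2 at 74.3 to 81.7 CPM on Day5, above all other days.

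The arginine transporters changed on different days. Slc7a1, the widely expressed cationic amino acid transporter also called CAT1, was measured at 35.1, 23.4, 24.6 and 24.7 CPM in the Day0 libraries and at 36.9, 34.2, 34.4 and 33.2 CPM in those of Day3. On Day12 its level was 74.6, 79.9, 72 and 81.4 CPM, and on Day14 it was 101, 98.9, 110 and 99.1 CPM. All libraries of Day12 and Day14 stood above all libraries of the other days, while those of Day3 overlapped Day0 through Day0 replicate 1. The log2 fold change against Day0 was 1.51 ± 0.1 (SE, n = 4 and 4) on Day12 (2.86-fold, adjusted p = 6.5e-12) and 1.92 ± 0.1 on Day14 (3.79-fold, adjusted p = 1.7e-14). The rise came between Day10 and Day12, by 1.35 ± 0.1 on the log2 scale (adjusted p = 5.1e-11). From Day5 to Day10 Slc7a1 stayed within 22 to 32.2 CPM and no difference from Day0 passed the test. Without Day0 replicates 1 and 4 the difference passed on Day5, Day7 and Day10, with log2 fold changes of 0.29, 0.255 and 0.338, and it also passed on these days without Day0 replicate 1 alone (0.286, 0.238 and 0.325). The small Day3 increase (0.364 ± 0.11, adjusted p = 0.0037) missed the threshold without Day0 replicates 2 and 3 (0.262, adjusted p = 0.051).

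Slc7a2, the transporter CAT2 that cytokines can induce in macrophages, was the only member called lower on Day3. Its level was 51.6, 40.9, 40.2 and 53.9 CPM on Day0 and 11.3, 12.5, 13.7 and 10.5 CPM on Day3. The groups did not overlap, and the log2 fold change was −1.96 ± 0.11 (3.89-fold lower, adjusted p = 1.5e-14). It rose again from Day3 to Day5 (1.01 ± 0.11, adjusted p = 1.3e-07) and from Day7 to Day10 (0.467 ± 0.11, adjusted p = 0.0014). On Day10 it stood at 40.3, 41, 43.7 and 36.8 CPM, and its difference from Day0 (−0.204 ± 0.11) had an adjusted p of 0.12. This value rests on the Day0 libraries used: it was −0.38 (adjusted p = 0.0055) without Day0 replicates 2 and 3, and −8.09e-05 (adjusted p = 1) without Day0 replicates 1 and 4. On Day14 it stood at 21.7, 21.3, 22.3 and 21.9 CPM, below all Day0 libraries (−1.1 ± 0.11, adjusted p = 1.4e-09). From Day12 to Day14 it fell by 0.812 on the log2 scale (adjusted p = 9.7e-07), while Slc7a1 rose by 0.408 (adjusted p = 0.0019). The lower level on Day12 (−0.285, adjusted p = 0.03) was lost without Day0 replicates 1 and 4 (−0.0812, adjusted p = 0.57), with no composition normalization (−0.14, adjusted p = 0.29) and in limma voom (−0.273, adjusted p = 0.067), and the groups overlapped.

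Both enzymes that remake arginine from citrulline were higher on Day3, Day5 and Day14. Ass1, argininosuccinate synthase and the step that usually limits this route, was measured at 35.3, 16.2, 17.8 and 26.8 CPM on Day0 and at 59.1, 47.4, 53.3 and 54.5 CPM on Day3. It reached 74.1, 79.6, 82.7 and 70 CPM on Day14. Neither of these days overlapped Day0, and Day14 also stood above every other day. The log2 fold changes were 1.16 ± 0.14 on Day3 (2.23-fold, adjusted p = 5.2e-08) and 1.68 ± 0.14 on Day14 (3.19-fold, adjusted p = 7.3e-11). In between, its mean fell to 33.4 CPM on Day10, where all 4 libraries lay within the Day0 range. That Day10 increase (0.48 ± 0.14, adjusted p = 0.0063) was lost without Day0 replicates 2 and 3 (0.109, adjusted p = 0.39) and in the edgeR fit of the 8 Day0 and Day10 libraries (0.499, adjusted p = 0.083). Ass1 then rose from Day10 to Day12 (0.522 ± 0.14, adjusted p = 0.0038) and from Day12 to Day14 (0.674 ± 0.14, adjusted p = 0.00026).

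Asl, argininosuccinate lyase, had the smallest F value over the wound days among the members. It was measured at 18.4, 14.6, 15.9 and 15.6 CPM on Day0, at 22.8, 21.5, 23.3 and 23.3 CPM on Day3 and at 23.6, 23.1, 21.9 and 19.6 CPM on Day14. Both later groups lay above Day0, by a log2 fold change of 0.493 ± 0.075 on Day3 (1.41-fold, adjusted p = 1.9e-06) and 0.449 ± 0.075 on Day14 (1.37-fold, adjusted p = 8.4e-06). Day3 and Day14 did not differ by the test (−0.0441 ± 0.074, adjusted p = 0.62). On Day7, Day10 and Day12 the differences from Day0 were 0.164, 0.12 and 0.124, and none passed the test with all libraries. Without Day0 replicate 1 all of them passed (0.234, 0.193 and 0.212, adjusted p = 0.013, 0.038 and 0.025), and the Day7 difference passed without Day0 replicates 1 and 4 (0.246, adjusted p = 0.02). In limma on log2(FPKM + 0.1) all of them passed (0.169, 0.175 and 0.267, adjusted p = 0.049, 0.042 and 0.0028), and the Day12 difference also passed with no composition normalization (0.269, adjusted p = 0.0043).

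Of the NO synthases, Nos2, the inducible form, was measured at 2.83, 3.01, 2.39 and 2.03 CPM on Day0 and at 25.7, 28, 27.2 and 27.5 CPM on Day3. On Day5 it reached 80.2, 81.7, 78.5 and 74.3 CPM, above every library of the other days. The log2 fold change against Day0 was 3.4 ± 0.13 on Day3 (10.5-fold, adjusted p = 1.5e-18) and 4.94 ± 0.12 on Day5 (30.6-fold, adjusted p = 2.5e-21). Its peak fell on a single sampled day, with a rise of 1.54 ± 0.11 from Day3 to Day5 (adjusted p = 2.6e-11) and a step of −3.32 ± 0.11 from Day5 to Day7 (10-fold lower, adjusted p = 1.3e-17). On Day7 it stood at 8.86, 7.3, 8.29 and 6.98 CPM and on Day10 at 11.1, 10.1, 12.3 and 9.68 CPM. The Day10 libraries all lay above those of Day7 (0.456 ± 0.11, adjusted p = 0.003). On Day12 Nos2 was within 1.74 to 2.96 CPM and its difference from Day0 did not pass the test (−0.195 ± 0.14, adjusted p = 0.27), but it did without Day12 replicate 1 (−0.355, adjusted p = 0.037). The Day14 increase (0.345 ± 0.14, adjusted p = 0.029) was lost without Day0 replicates 1 and 4 (0.276, adjusted p = 0.14) and without Day14 replicate 2 (0.271, adjusted p = 0.11) and in limma voom (0.349, adjusted p = 0.28), and the groups overlapped.

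Nos3, the endothelial form, was measured at 20.6, 25, 23.2 and 19.2 CPM on Day0, at 39.7, 43.7, 42.4 and 45.6 CPM on Day3 and at 32.6, 32.5, 31.3 and 30 CPM on Day5. Both wound days lay above Day0 in all libraries, by 0.962 ± 0.079 (1.95-fold, adjusted p = 2.2e-11) and 0.522 ± 0.079 on the log2 scale (1.44-fold, adjusted p = 2.2e-06). It peaked on Day3, before Nos2. On Day12 it stood at 16.5, 16.8, 14 and 17.8 CPM and on Day14 at 17, 15.8, 17.8 and 17.7 CPM, below all Day0 libraries (−0.434 ± 0.08 and −0.365 ± 0.08, adjusted p = 6.5e-05 and 0.00028). The Day14 decrease was −0.143 (adjusted p = 0.16) without Day0 replicates 2 and 3. The Day10 increase (0.316 ± 0.079, adjusted p = 0.0016) was 0.187 (adjusted p = 0.071) without Day0 replicates 1 and 4. On Day7 the difference from Day0 (0.163, adjusted p = 0.091) passed the test without Day0 replicates 2 and 3 (0.306, adjusted p = 0.0041) and without Day0 replicate 2 alone (0.232, adjusted p = 0.02).

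Odc1, the first enzyme of polyamine synthesis, was high on the first and the last wound day. It was measured at 147, 91.6, 96.8 and 115 CPM on Day0, at 269, 247, 267 and 261 CPM on Day3 and at 309, 274, 299 and 251 CPM on Day14. Both days lay above Day0 in all libraries and overlapped each other. The log2 fold changes were 1.21 ± 0.093 (2.32-fold, adjusted p = 6.8e-12) and 1.33 ± 0.093 (2.52-fold, adjusted p = 1.9e-12), and the difference between these days did not pass the test (0.119 ± 0.093, adjusted p = 0.26). Its step from Day3 to Day5 was −0.835 ± 0.093 on the log2 scale (adjusted p = 1.3e-07). It stayed within 122 to 164 CPM from Day5 to Day12, and rose from Day12 to Day14 by 0.883 ± 0.093 (adjusted p = 2e-08). The smaller increases on Day5 (0.38 ± 0.093, adjusted p = 0.00098) and Day10 (0.274 ± 0.093, adjusted p = 0.016) were 0.173 and 0.0569 without Day0 replicates 2 and 3 and did not pass, and the Day10 increase was also lost without Day0 replicate 2 (0.189) or replicate 3 (0.21) alone. The Day7 difference (0.191, adjusted p = 0.091) passed without Day0 replicates 1 and 4 (0.45, adjusted p = 2.9e-06) and without Day0 replicate 1 alone (0.347, adjusted p = 0.00023), and was −0.0278 without Day0 replicates 2 and 3.

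Levels of different genes were compared per length, as FPKM, the count scaled to gene length and library total. On Day3 Odc1 had the highest FPKM of the members (93.9 ± 3.82, SD, n = 4), followed by Ass1 (30.9 ± 2.88), Nos3 (9.69 ± 0.482) and Asl (9.02 ± 0.299), and the libraries of the last pair overlapped. On Day14 the order was Odc1 (116 ± 8.82), Ass1 (50.1 ± 3.09), Slc7a1 (14.8 ± 0.377), Asl (9.94 ± 0.82) and Nos3 (4.39 ± 0.2). Nos2 was at or below 0.811 FPKM on average on Day0, Day12 and Day14.

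Ratios of 2 genes within a library do not depend on the scaling between libraries. The FPKM of Nos2 over that of Nos3 had a median of 0.109 on Day0 (range 0.0994 to 0.133), 0.62 on Day3 and 2.41 on Day5 (2.38 to 2.43), and Day5 was the only day on which Nos2 exceeded Nos3. It was 0.306 on Day7, 0.392 on Day10, 0.131 on Day12 and 0.178 on Day14. By the exact two-sided permutation test of 4 against 4 libraries, whose smallest p is 0.0286, the ratio differed from Day0 on every day except Day12 (p = 0.286), each with p = 0.0286 and an adjusted p of 0.0312 over the 12 ratio comparisons. The ratio of Slc7a1 to Slc7a2 went from 0.728 on Day0 (0.563 to 0.836) to 3.62 on Day3, back to 0.917 on Day10 (0.859 to 0.996) and up to 5.7 on Day14 (5.56 to 6.07), and all 6 days lay above Day0 without overlap (exact permutation p = 0.0286 each, adjusted p = 0.0312). In all, 11 of the 12 ratio comparisons did not overlap Day0.

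**Figure D3:**
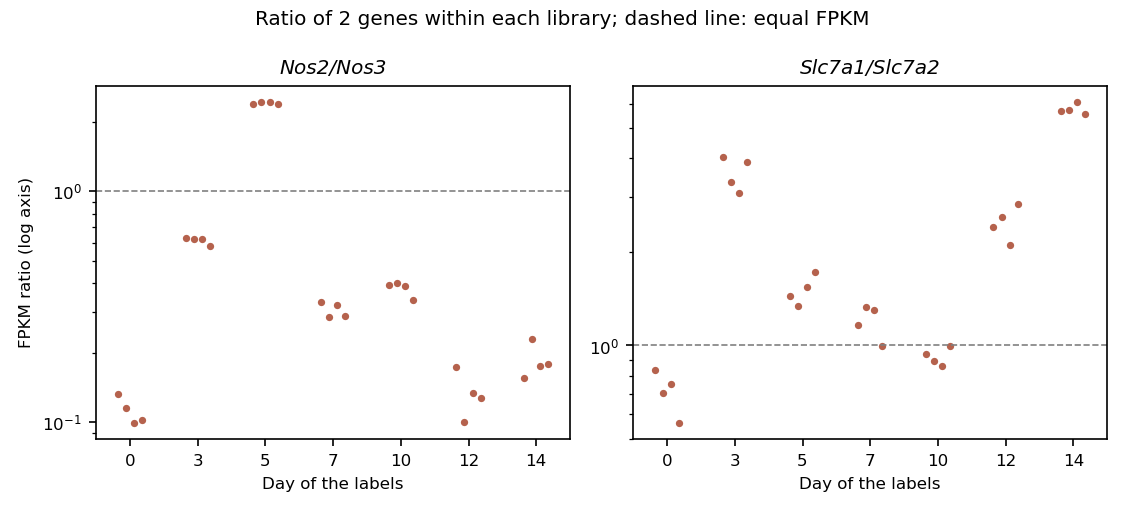
The FPKM ratio of 2 genes (y axis, log scale) is plotted for every library (points, 4 per day) by day (x axis), and the dashed line marks equal FPKM. Nos2 over Nos3 is above the line only on Day5 (2.38 to 2.43), and Slc7a1 over Slc7a2 is highest on Day14 (5.56 to 6.07).

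The other genes of these pathways were given by lists of 73 genes, of which 67 passed the filter (Nags, Otc, Agmat, Oaz3, Il4 and Ifng did not). Counts of list genes stand beside the shares of all genes tested, which were 31.8% higher and 34.8% lower on Day3 and 28.2% and 34.5% on Day14. Over all lists, 31 of 67 were higher and 20 were lower on Day3, and 21 were higher and 31 were lower on Day14, so that the lower genes on Day3 and the higher genes on Day14 were near the shares of all genes. In the list of arginine supply and transport, 3 of 7 genes were higher and 2 were lower on Day3 (all genes 31.8% and 34.8%), and 4 were higher and 2 were lower on Day14 (28.2% and 34.5%). Slc7a7, a partner of Slc3a2 in the exchange of cationic amino acids, was higher on Day3 (1.64 ± 0.12 on the log2 scale, adjusted p = 4.9e-12) and lower on Day14 (−0.977 ± 0.13, adjusted p = 3e-07). Slc3a2, the heavy chain that carries these transporters to the membrane, and Slc7a5, a light chain for large neutral amino acids, were higher on Day14 by 1.06 ± 0.096 and 1.57 ± 0.19 (adjusted p = 2.6e-10 and 8.1e-08), as Slc7a1 was. Cps1, the carbamoyl phosphate synthetase of the urea cycle, was 19.3-fold higher on Day14 (4.27 ± 0.29, adjusted p = 1.1e-12), with 2.46 FPKM on average. It was lower on Day5 (−2.47 ± 0.53, adjusted p = 4.9e-05). The Day14 fold puts its Day0 level below 1 FPKM, so the Day5 value compares low levels. Otc, the next enzyme of that cycle, did not pass the filter.

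Genes around NO synthesis moved in both directions. Of 7 genes in the list of NO synthases and their regulators, 3 were higher and 3 lower on Day3 (all genes 31.8% and 34.8%), and 6 were lower on Day14 (34.5%). Nos1, the neuronal NO synthase that skeletal muscle also expresses, was 13.4-fold lower on Day3 (−3.75 ± 0.19, adjusted p = 1.4e-15), and the summed level of 6 skeletal muscle markers went from 17400 to 29500 CPM on Day0 to 3830 to 4990 CPM on Day3. The part of the muscle content in this result was not tested. Ddah1, which degrades endogenous NO synthase inhibitors, was 3.78-fold higher on Day3 (1.92 ± 0.091, adjusted p = 3.2e-16), whereas its homologue Ddah2 was lower (−0.995 ± 0.13, adjusted p = 1.1e-07). Nostrin, a trafficking factor of Nos3, was higher on Day5 (0.907 ± 0.13, adjusted p = 7.8e-07). Ddah1 and Nostrin were lower on Day14 (−0.669 ± 0.095 and −0.742 ± 0.14, adjusted p = 7e-07 and 2.7e-05).

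Tetrahydrobiopterin is a cofactor that all NO synthases need. Gch1, the first enzyme of its synthesis, was higher on Day3 (1.4 ± 0.13, 2.64-fold, adjusted p = 2.4e-10), as was Pts, the next one (0.438 ± 0.07, adjusted p = 3.7e-06), and Gch1 was lower on Day14 (−0.434 ± 0.13, adjusted p = 0.0058). Spr, the reductase of its last step, was lower on Day10 (−0.409 ± 0.085, adjusted p = 0.00021), and Pcbd1, which takes part in recycling the cofactor, was lower on Day3 (−1.46 ± 0.22, adjusted p = 1.7e-06). In that list 2 of 6 genes were higher and 4 lower on Day3 (all genes 31.8% and 34.8%). Of 6 genes that respond to NO, 3 were lower on Day3 (all genes 34.8%). The subunits of the NO receptor guanylate cyclase, Gucy1a1 (−1.51 ± 0.08, adjusted p = 3.1e-15) and Gucy1b1 (−0.568 ± 0.079, adjusted p = 4.5e-07), were lower on Day3, the kinase gene Prkg1 was lower on Day14 (−1.35 ± 0.15, adjusted p = 1.9e-08), and the phosphodiesterase gene Pde5a was lower on Day3 (−0.336 ± 0.12, adjusted p = 0.013) and higher on Day10 (0.458 ± 0.11, adjusted p = 0.0015).

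Downstream of ornithine, the proline branch and the polyamine branch had members in both directions. Of 6 genes between ornithine, proline and glutamate, 2 were higher and 3 lower on Day3 (all genes 31.8% and 34.8%), and 3 higher and 3 lower on Day14 (28.2% and 34.5%). Prodh and Aldh4a1, which degrade proline to glutamate, were lower on Day3 (−1.46 ± 0.15 and −0.573 ± 0.076, adjusted p = 3e-09 and 2e-07), and Aldh4a1 was higher on Day14 (0.29 ± 0.075, adjusted p = 0.0015). Aldh18a1, which makes the proline precursor from glutamate, was higher on Day7 (0.775 ± 0.11, adjusted p = 1.8e-06), and the reductase Pycrl was higher on Day14 (0.617 ± 0.085, adjusted p = 4.1e-07). Gatm, which uses arginine for creatine, was lower on Day14 (−1.77 ± 0.1, adjusted p = 4.3e-14), and Gamt, the next enzyme of that route, was lower on Day12 (−0.866 ± 0.1, adjusted p = 8.8e-08). Azin2, an antizyme inhibitor, was higher on Day7 (1.12 ± 0.085, adjusted p = 1.3e-11).

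Among the regulators of ornithine decarboxylase, Azin1, which protects it from antizyme, was higher on Day3 (0.531 ± 0.061, adjusted p = 1.5e-08). The antizyme gene Oaz2 was lower on Day3 (−0.514 ± 0.079, adjusted p = 2.4e-06), when Oaz1 was not called. Oaz1 was lower on Day12 (−0.227 ± 0.065, adjusted p = 0.0049). In the synthesis and salvage list, 2 of 5 genes were higher and 2 were lower on Day3 (all genes 31.8% and 34.8%): the spermidine synthase Srm was higher (0.557 ± 0.081, adjusted p = 8.8e-07) and the spermine synthase Sms was lower (−1.36 ± 0.12, adjusted p = 1.2e-10). Mtap, the salvage enzyme of the methionine by-product, was higher on Day14 (0.762 ± 0.054, adjusted p = 2e-12). Amd1 was lower on Day10 (−0.277 ± 0.06, adjusted p = 0.00035), but it shares near-identical sequence with Amd2, so its counts are uncertain.

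Of the 7 genes of polyamine breakdown and transport, 5 were higher on Day3 (all genes 31.8%) and on Day5 (29.0%), 4 on Day7 (25.6%) and on Day10 (23.5%), 2 on Day12 (21.7%) and 3 on Day14 (28.2%). Smox, spermine oxidase, was 4.66-fold higher on Day3 (2.22 ± 0.071, adjusted p = 1e-19). Sat1, which acetylates polyamines for export, was higher by 0.851 ± 0.072 (adjusted p = 4.9e-11) and the transporter Atp13a2 by 0.656 ± 0.085 (adjusted p = 1.3e-07) on Day3, and Sat2 by 0.627 ± 0.17 on Day10 (adjusted p = 0.0024). The translation factor Eif5a, which needs a spermidine-derived hypusine, and the hydroxylase Dohh that completes this residue were higher on Day14, the second Odc1 peak (0.607 ± 0.068 and 0.769 ± 0.14, adjusted p = 1.1e-08 and 3.9e-05). Dhps, the enzyme before Dohh, was lower on Day7 (−0.353 ± 0.086, adjusted p = 0.0012).

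Of 14 cytokine genes and their mediators that are known inputs to genes of arginine metabolism such as Nos2, 11 were higher on Day3 (all genes 31.8%), and 4 were higher and 9 lower on Day14 (28.2% and 34.5%). Il6 and Il1b were 80.7-fold and 64.1-fold higher on Day3 (6.33 ± 0.36 and 6 ± 0.18, adjusted p = 4.6e-15 and 3.7e-19). Tnf was 12.1-fold higher on Day5 (3.6 ± 0.16, adjusted p = 2.4e-16). Il4ra, the receptor chain for interleukins 4 and 13, was 9.7-fold higher on Day3 (3.28 ± 0.081, adjusted p = 1.5e-21). Il6, Il1b and Il4ra were lower on Day14 (−1.67 ± 0.58, −2.73 ± 0.23 and −0.892 ± 0.083, adjusted p = 0.0088, 2.6e-11 and 4e-10). Il6 was at 36.5 FPKM on Day3, and its fold there puts the Day0 level below 1 FPKM, so its Day14 value compares low levels. Il4 and Ifng themselves did not pass the filter.

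**Figure D4:**
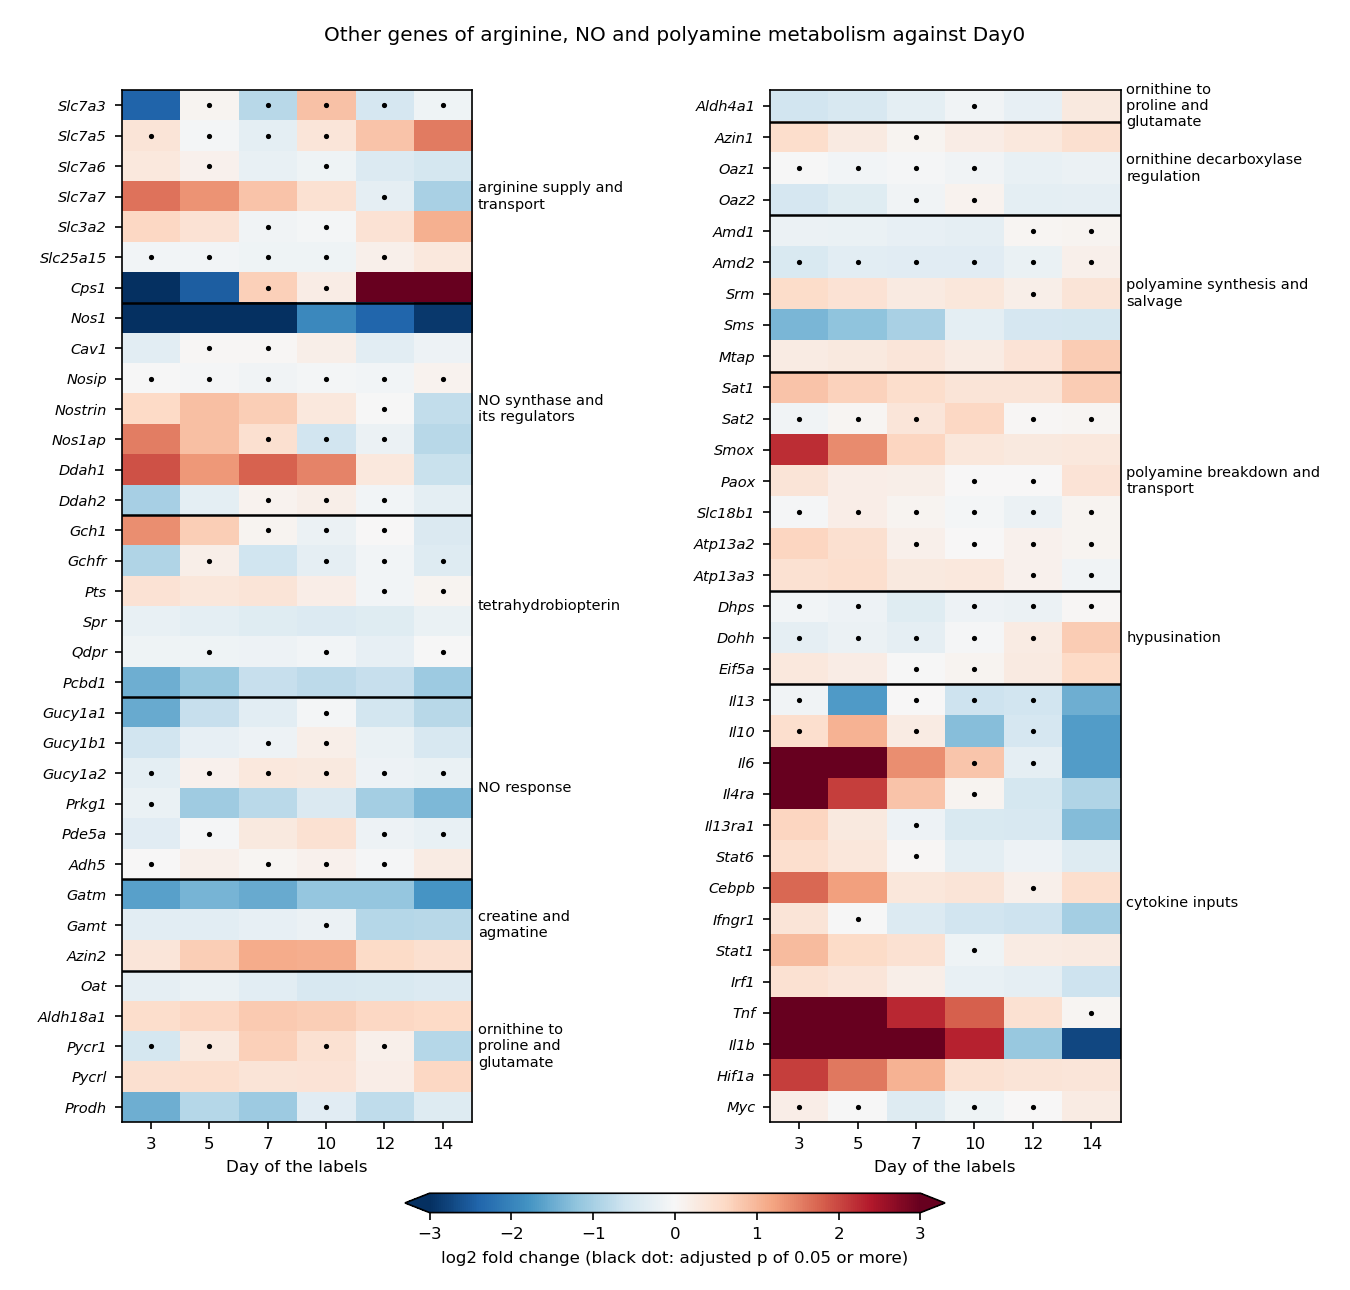
The colour gives the log2 fold change against Day0 (scale from −3 to 3, larger values in the end colours) of each of 67 genes (rows, grouped by list) on each day (columns), and a black dot marks an adjusted p of 0.05 or more. The breakdown genes Smox (2.22) and Sat1 (0.851) are red on Day3 and Nos1 (−3.75) is blue, while most cytokine inputs pass from red on Day3 to blue on Day14.

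Cell type markers moved with several of these results, and their part in them was not tested. The summed level of 8 macrophage markers was 1170 to 1680 CPM on Day0, 2790 to 2910 CPM on Day3, 2800 to 2890 CPM on Day5, 963 to 1070 CPM on Day10 and 407 to 440 CPM on Day14. On Day3, 7 of the 8 were called higher and 1 lower. On Day10, when Nos2 was higher than on Day0, 1 was called higher and 6 lower, and on Day14 all 8 were called lower. The summed level of 8 neutrophil markers was 16.4 to 42.7 CPM on Day0 and 4370 to 5520 CPM on Day3, and it returned to 15.2 to 18.6 CPM on Day14. Ly6g and Ngp, which define neutrophils, had 0 counts in all Day0 libraries. On Day5, when Nos2 was highest, the neutrophil sum was 1590 to 2000 CPM.

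The 8 endothelial markers summed to 554 to 737 CPM on Day0, 959 to 1050 CPM on Day3, 962 to 1110 CPM on Day5, 779 to 877 CPM on Day7 and 483 to 547 CPM on Day14. On Day3, the day of the Nos3 peak, 6 of 8 were called higher and 1 (Vwf) lower. On Day5 and on Day7, 6 were called higher and 0 lower, and on Day10 5 were higher and 0 lower. Nos3 was not called on Day7. The 8 hair follicle markers summed to 259 to 2140 CPM on Day0 and to 7.94 to 14.5 CPM on Day3, and on Day12 and Day14 they summed to 4330 to 5660 CPM and 3610 to 4830 CPM, with all 8 called higher on both days, the days on which Slc7a1 was high. On Day7 the sum was 1300 to 1770 CPM. The 6 proliferation markers summed to 105 to 231 CPM on Day0, 326 to 341 CPM on Day3 and 644 to 784 CPM on Day14, with all 6 called higher on every day, as Ass1 was. On Day10, when Ass1 had its lowest mean of the wound days, this sum was 381 to 396 CPM. The 4 wound edge keratinocyte markers summed to 468 to 709 CPM on Day0 and 2450 to 2980 CPM on Day3, with 3 of 4 called higher. The 6 fibroblast markers summed to 10100 to 41400 CPM on Day0, 11900 to 13600 CPM on Day3, 34000 to 34800 CPM on Day7, 32000 to 37200 CPM on Day10 and 10400 to 12700 CPM on Day14, with 4 called lower and 2 (Pdgfra and Pdgfrb) higher on Day3, and all 6 lower on Day14. On Day5, Day7 and Day12, when Slc7a2 was lower as well, 2, 3 and 1 of them were called higher, and 1 was called lower, on Day5. The 6 skeletal muscle markers were called lower on every day, at a sum of 7740 to 9900 CPM on Day10 and 4230 to 5310 CPM on Day14.

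**Figure D5:**
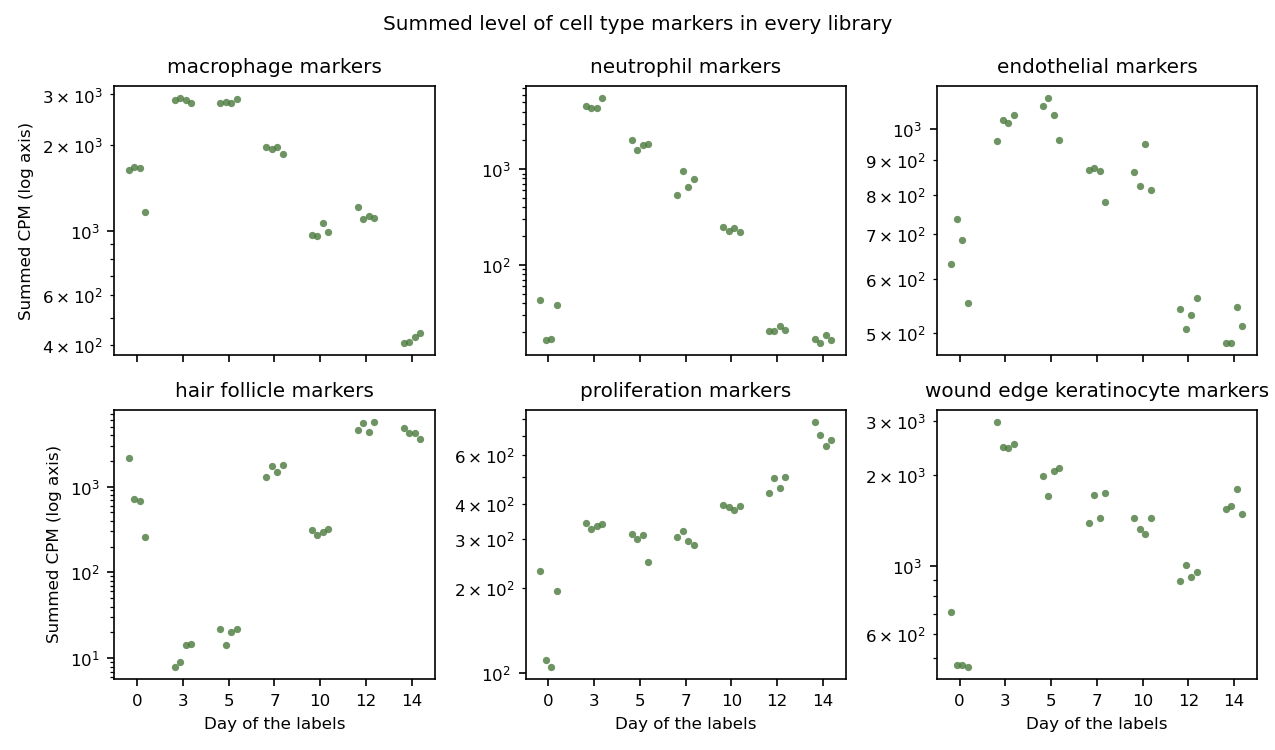
The summed CPM of each marker list (y axis, log scale) is plotted for every library (points, 4 per day) by day (x axis). The macrophage and neutrophil sums are highest on Day3 or Day5 and lowest on Day14, while the hair follicle sum passes from 7.94 to 14.5 CPM on Day3 to 3610 to 4830 CPM on Day14.

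The genes most like each member were those with the smallest root mean square difference of the 6 log2 fold changes against Day0, among 14683 genes with a mean of at least 1 CPM. This likeness is a description, since all 6 values share the Day0 libraries. For Nos2 they were Tnf (0.69), Thbs1 (0.81) and Mirt1 (0.81), a looser likeness. Nos3 was nearest to Dysf (0.11), Adcy4 (0.13) and Gadd45g (0.14). For Slc7a1 they were Fads2 (0.16), Slc39a6 (0.23) and Ttpa (0.24), and for Slc7a2 Ccdc141 (0.17), Pik3ip1 (0.18) and Cpe (0.19). Ass1 was nearest to Ercc6l (0.13), Espl1 (0.19) and Mcm5 (0.19), Asl to Aars (0.034), Get3 (0.043) and Prkab1 (0.056), and Odc1 to Ddx39a (0.18), Prr5l (0.22) and Cspg4 (0.22). Among the members, the closest pair was Ass1 and Odc1 (0.37), and no member was among the 3 genes nearest to another.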

How the data were processed

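RNA was extracted with TRIzol and made into libraries (VAHTS Universal V6 kit) for sequencing. The authors deposited raw read counts per gene symbol, and the deposited FPKM values equal the count divided by a constant gene length and the library total (largest relative deviation 3.1e-06). The processing notes name fastp, R 3.2.0 and mm10. The aligner, counter, annotation and strand setting are not given in the sources used here. Groups and replicate numbers came from the sample titles.

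Counts of all 28 libraries were fitted once in R 4.3.3 with edgeR 4.0.16 (TMM, filterByExpr, glmQLFit and glmQLFTest, two-sided, no covariates, 21 residual degrees of freedom), and p-values were adjusted over 18107 genes. SEs come from this fit. CPM used the TMM-scaled totals. A gene with few counts is limited by counting error; all members had counts in every library. Gene pair ratios were tested on log2 counts with 0.5 added, by exact permutation, adjusted over 12 comparisons. Alternatives, one at a time, used limma 3.58.1, DESeq2 1.42.0, other normalizations and filters (the limma fits of FPKM change the test, the scale and the normalization together, and one of them the filter too), the replicate number as a block, Xist level as a covariate and each library left out. Fits without 2 Day0 libraries were added after seeing the data. Named genes were the members, per list at most 4 genes with the largest called change that did not overlap Day0 and reached 1 FPKM, and the 3 genes nearest to each member. Ly6g, Ngp, Vwf, Pdgfra, Pdgfrb and Atg9b were chosen after their values were seen. The members and lists were chosen with earlier results of these data known. A few genes of these pathways, and the ratios that use them, are not reported here, and counts of members and list genes leave them out. Scripts were tested on simulated data.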

Additional observations from a re-analysis of the deposited data

Results flagged for a closer look

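Each member was examined in each day's 4 libraries for a library whose gap to its nearest neighbour took more of the day's range than Dixon's critical value for 4 values allows. Of 49 such groups 5 stood out, where chance gives about 2. Slc7a1 was at 35.1 CPM in Day0 replicate 1 against 23.4 to 24.7 CPM in the other Day0 libraries, at 22 CPM in Day7 replicate 4 against 30.4 to 31 CPM, and at 110 CPM in Day14 replicate 3 against 98.9 to 101 CPM. Slc7a2 was at 17.5 CPM in Day5 replicate 4 against 25.6 to 26.7 CPM. Asl was at 19.3 CPM in Day7 replicate 2 against 17.6 to 17.7 CPM.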

How the results depend on the processing

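The members called higher or lower by day and the changes between wound days kept their direction and side of the threshold in most alternatives. Of the values for single members, 1066 kept both under the alternatives other than leaving out 1 library, 52 passed the threshold only there, 18 lost it and 19 changed sign. With 1 library left out, 2122 kept both, 21 gained, 9 lost and 4 changed sign.

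The criteria of the study, with their fold limit, were applied to the edgeR values. Under them, the members higher numbered 1 on each of Day3, Day5, Day7, Day10 and Day12 and 2 on Day14. The members lower numbered 0 on Day5, Day7, Day12 and Day14. The members lower on Day12 (2) were 1 with no composition normalization, in limma voom, in each limma fit of FPKM values, in the edgeR fit of the 8 libraries of each comparison, and without Day0 replicates 1 and 4. The members higher on Day7 (2) were 4 with log2(FPKM + 0.1) and with log2(FPKM + 1) at a mean FPKM of at least 1, and 5 without Day0 replicates 1 and 4. The members higher on Day10 (4) were 2 in the fit of 8 libraries and without Day0 replicates 2 and 3. Without the latter, 1 was lower on Day10 (0 with all) and 1 on Day14 (2 with all). Without either pair of Day0 libraries, 5 changed between Day5 and Day7 (3 with all). Leaving out 1 library gave 6 higher members on Day3 throughout, 5 to 6 on Day5, 2 to 5 on Day7 (5 without Day0 replicate 1), 3 to 6 on Day10, 3 to 4 on Day12 and 4 to 5 on Day14. It gave 0 to 1 lower members on Day10 (1 without Day5 replicate 4), 1 to 2 on Day12 (1 without Day0 replicate 1, Day0 replicate 4, Day12 replicate 2 or Day12 replicate 4), 2 on Day14, and 1 on Day3, Day5 and Day7. The members changed numbered 4 to 6 between Day3 and Day5 and 3 to 4 between Day5 and Day7, and all 7 members differed among the wound days throughout. The causes were not tested.

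Sign changes were near 0. Without Day0 replicates 2 and 3, Slc7a1 was −0.019 on Day5 and −0.0673 on Day7, and Odc1 was −0.0278 on Day7. Slc7a1 from Day5 to Day7 (−0.0355) was 0.0151 with upper quartile and 0.00642 with no composition normalization, 0.00275, 0.00257 and 0.00275 in the limma fits and from −0.111 to 0.0563 (without Day7 replicate 4) with 1 library left out, and its Day7 to Day10 value was −0.017 (without Day7 replicate 4) to 0.124. Asl from Day7 to Day10 (−0.0443) was 0.00106, 0.00785, 0.00498, 0.0053 and 0.00498 in the same order of settings. Asl from Day10 to Day12 (0.00448) was −0.0306 with upper quartile normalization, −0.000873 with no filter, −0.0324 without Day10 replicate 3 and from −0.0527 (without Day12 replicate 4) to 0.0425 over all single libraries left out. Slc7a2 from Day10 to Day12 (−0.0813) was 0.00935 with no composition normalization and 0.00686, 0.00804 and 0.00686 in the limma fits.

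The replicate numbers did not pair the libraries: same-numbered deviations correlated by −0.076 to 0.18 over 84 pairs, and 1 pair exceeded 0.1. With the replicate block, 6 members were higher on Day3 and 5 on Day14, and 4 instead of 3 changed between Day5 and Day7 (Slc7a2 gained, 0.285). DESeq2 and the fit of 8 libraries gave no joint test. Xist was at 0 to 13 counts in all libraries, so that its covariate carries little. The Y-linked gene Ddx3y was at 2101 to 3722 counts in all of them, the levels of male tissue. The paper states that mice of both sexes were used. Without composition normalization the median of all genes moved by 0.14 on Day12 and 0.13 on Day14. With log2(FPKM + 1) the folds of low genes such as Nos2 are understated.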

Other observations

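Within Day0, replicates 1 and 4 had the higher levels of Ass1 (35.3 and 26.8 CPM against 16.2 and 17.8 CPM), Slc7a2 (51.6 and 53.9 CPM against 40.9 and 40.2 CPM) and Odc1 (147 and 115 CPM against 91.6 and 96.8 CPM), and the lower levels of Nos3 (20.6 and 19.2 CPM against 25 and 23.2 CPM). The same libraries had the higher sums of neutrophil markers (42.7 and 38.1 CPM against 16.4 and 17 CPM), skeletal muscle markers (28000 and 29500 CPM against 17400 and 17700 CPM) and proliferation markers. These are values of 4 libraries and were not tested.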
